A study of Mus musculus with 12 samples.

Results

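Genes that set the tone of the pulmonary vessels were followed through the whole lung of C57BL/6 mice at 2 embryonic stages, E15.5 and E18.5, and after birth at P5 and P8. The 9 genes were chosen by symbol, as members of the nitric oxide, endothelin and prostacyclin pathways of the lung circulation, and all 9 were found among the 16152 genes of the deposited count table. Bulk RNA from flash-frozen lungs was sequenced in 3 replicates per time-point, which gave 12 libraries; the sample labels name no transgene and no treatment. The animals of a time-point came from a single litter, so litter and time-point cannot be told apart. The p-values of the fold changes below measure the spread between littermates. Levels are given as CPM (the read count of a gene scaled to the mapped reads of its library), as the authors deposited them, in the order of replicates 1, 2 and 3.

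Before birth the lung circulation is kept constricted, and at the first breaths its resistance falls as the vessels relax and the lung takes over gas exchange. Endothelial cells make nitric oxide and prostacyclin, which relax the smooth muscle of the vessel wall through cyclic GMP and cyclic AMP, and endothelin-1, which constricts it through the receptor encoded by *Ednra*. The lung also removes prostaglandins from the blood. Drugs used in pulmonary hypertension act on several of these steps, including the phosphodiesterase encoded by *Pde5a*, the endothelin receptors and the prostacyclin receptor.

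In the mm10 genome (GENCODE vM21 annotation) the nitric oxide genes are *Nos3* at chr5:24364810-24384474 on the plus strand, *Prkg1* at chr19:30564489-31765033 on the minus strand and *Pde5a* at chr3:122728947-122859374 on the plus strand. The endothelin genes are *Edn1* at chr13:42301476-42307990 (plus), *Ednra* at chr8:77663031-77724464 (minus) and *Ece1* at chr4:137862237-137965229 (plus). The prostanoid genes are *Ptgis* at chr2:167191805-167240604 (minus), *Ptgir* at chr7:16906490-16910905 (plus) and *Hpgd* at chr8:56294585-56321043 (plus). In this annotation, 32.3% of the exonic bases of *Nos3* lie under genes of the opposite strand, *Atg9b* and Gm15587, against 6.08% for *Ptgis* and at most 1.66% for the other 7 genes. Whether the authors' counting used strand was not given in the sources used here, so reads in the shared part of *Nos3* cannot be assigned with certainty.

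The promoters of *Hpgd*, *Ptgir* and *Edn1* are shown because these genes had the largest increases between E18.5 and P5. Each is the 250 bases before the start of the gene as given by RefSeq on GRCm38.p6, printed 5′ to 3′ on the strand of the gene, at chr8:56294302-56294551, chr7:16906240-16906489 and chr13:42301226-42301475, all on the plus strand. The RefSeq start of *Hpgd* lies before the start given above. Capitals mark the letters of the motifs that were searched.
Hpgd: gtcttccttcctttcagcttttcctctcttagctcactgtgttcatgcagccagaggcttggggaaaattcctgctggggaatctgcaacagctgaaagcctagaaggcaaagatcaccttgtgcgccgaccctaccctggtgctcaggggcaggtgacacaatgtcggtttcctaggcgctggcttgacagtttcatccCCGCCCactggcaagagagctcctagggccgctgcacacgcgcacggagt
Ptgir: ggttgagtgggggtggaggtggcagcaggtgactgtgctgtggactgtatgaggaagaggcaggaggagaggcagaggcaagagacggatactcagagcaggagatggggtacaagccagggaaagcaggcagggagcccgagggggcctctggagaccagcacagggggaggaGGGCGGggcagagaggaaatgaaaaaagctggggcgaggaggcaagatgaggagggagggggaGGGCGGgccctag
Edn1: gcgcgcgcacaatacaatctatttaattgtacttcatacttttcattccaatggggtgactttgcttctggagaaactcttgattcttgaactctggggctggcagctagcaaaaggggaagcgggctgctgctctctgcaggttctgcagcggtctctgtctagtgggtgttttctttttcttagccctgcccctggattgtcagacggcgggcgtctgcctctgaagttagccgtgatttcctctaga

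On both strands, 5 motifs were searched: the TATA box as TATAAA, the site of GATA factors as AGATAA, that of AP-1 as TGANTCA, the core of the hypoxia-response element as ACGTG and the GC box as GGGCGG. No motif match shares a base with a match of another motif in these 3 windows. The GC box was found in the *Hpgd* window, on the reverse strand and 50 to 45 bases before the start, and in the *Ptgir* window on the forward strand at 76 to 71 and 13 to 8 bases. None of the 5 motifs was found in the *Edn1* window. Among all 32851 promoter windows of the same length, 32.7% hold the GC box, 12.4% the TATA box, 9.99% the GATA site, 6.75% the AP-1 site and 16.6% the hypoxia-response core. Of the other members, *Pde5a*, *Prkg1* and *Ece1* also had a GC box in at least 1 of their listed windows, and *Ednra* had no motif match. A *Prkg1* window also held the GATA site, and an *Ece1* window held the hypoxia-response core on both strands. *Nos3* and *Ptgis* were not among the 7 members with a promoter in the table.

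The labelled tissue fitted its markers in all 12 libraries, with *Nkx2-1*, the lung epithelial transcription factor, between 136 and 237 CPM and the surfactant gene *Sftpc* at 505 CPM or more. Reads on the genes of the count table lay between 41337443 and 53901957 per library. A member had between 88 reads (*Ptgir*) and 35709 reads (*Pde5a*) in a library. Genes of heart muscle and of thymocytes were high in some libraries: *Myh6*, of heart muscle, was at 196 and 172 CPM in E15.5 replicates 1 and 2 against 5.84 in replicate 3, and *Rag1*, of thymocytes, was at 77.8 and 156 CPM in P8 replicates 1 and 2 against 4.19 in replicate 3. Values without these libraries are given where they change a result.

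Changes were tested with edgeR's quasi-likelihood test over the 15994 genes that reached 1 CPM in 3 or more libraries, and the FDR is the Benjamini-Hochberg value over all of them. In the text, a gene rose or fell when its FDR was under 0.05, and it passed both cutoffs of the study when its absolute log2 fold change (log2FC, later over earlier time-point, with its standard error, SE) was also above 1. From E18.5 to P5, 7 of the 9 genes rose, *Ednra* fell and *Ptgis* did not pass the test, except without E18.5 replicate 3. The rise of *Nos3* missed the threshold under several alternatives given below. Among all genes tested, 35.4% rose and 35.7% fell over this interval, so the background of change is high in both directions. The fold change passed both cutoffs for 4 of the 9 genes (*Hpgd*, *Ptgir*, *Edn1* and *Ece1*), against 26.8% of all genes. The median log2FC of the 9 genes was 0.91, where it was 0.00 over all genes. The 9 genes and the lists used below were chosen with earlier results of these data known. Their comparison with all genes is therefore a description and no test.

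From E15.5 to E18.5, *Ednra* rose and *Ptgis* fell, and the other 7 genes did not pass the FDR threshold; over all genes 11.6% rose and 9.87% fell. By edgeR, 0 of the 9 genes passed both cutoffs, against 3.04% of all genes, while 6 of the 9 had an unadjusted p under 0.05 and 1 of these (*Edn1*) also a log2FC above 1. From P5 to P8, *Nos3* and *Ptgis* rose and *Pde5a*, *Ednra* and *Hpgd* fell, where 9.75% of all genes rose and 8.21% fell. Again 0 of the 9 genes passed both cutoffs by edgeR, against 2.96% of all genes, and 5 had an unadjusted p under 0.05. For neither interval was the share of all genes under this unadjusted p computed, so the unadjusted counts have no background. DESeq2 and limma also put 0 genes past both cutoffs in each of these intervals. Between the first and the last time-point, E15.5 and P8, 8 genes rose and *Ednra* fell, where 37.6% of all genes rose and 38.7% fell, and 5 of the 9 genes passed both cutoffs, against 32.3% of all genes.

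**Figure D1:**
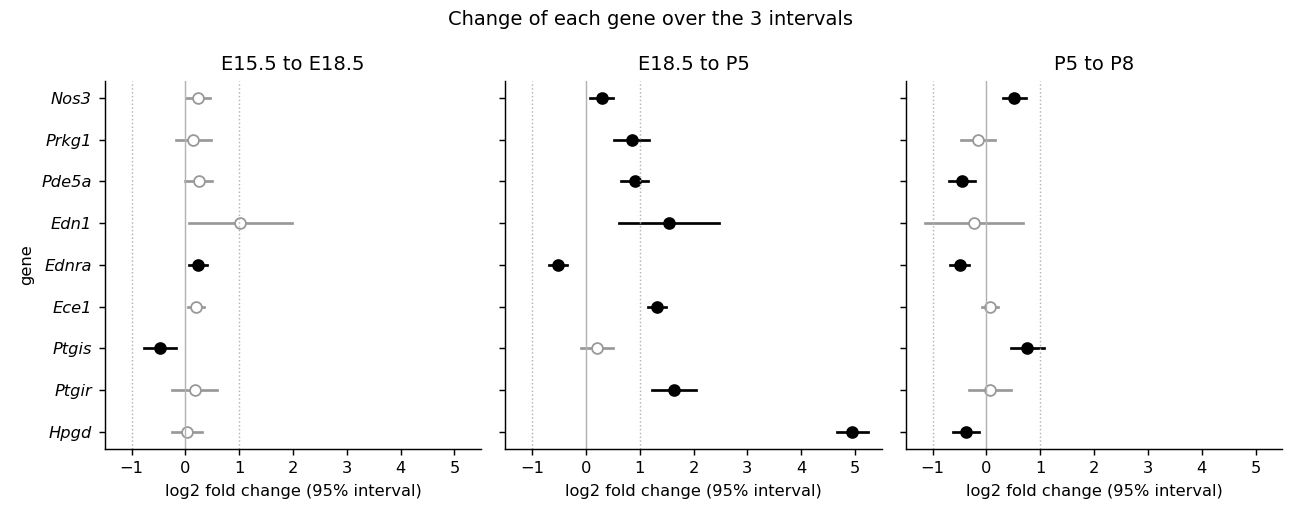
The log2FC (x axis) of each of the 9 genes (y axis) over the 3 intervals, with its 95% interval from edgeR; filled points are genes with FDR under 0.05, open points the others, and dotted lines mark a log2FC of 1 and -1. *Hpgd* stands apart at 4.95 from E18.5 to P5, and *Ednra* lies below 0 in the last 2 intervals.

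*Hpgd* encodes 15-hydroxyprostaglandin dehydrogenase, which inactivates prostaglandins after their uptake into the cell. It was at 10.6, 11.4 and 8.44 CPM at E15.5 and at 10.2, 11.2 and 9.45 CPM at E18.5. At P5 it was at 283, 306 and 310.5 CPM, and at P8 at 213, 209.6 and 278 CPM. All 6 postnatal libraries lay far above all 6 embryonic ones, and the embryonic time-points overlapped. The rise from E18.5 to P5 was 30.9-fold (log2FC 4.95, SE 0.13, edgeR FDR = 1.3e-10), and it stayed between 4.89 and 5.01 on the log2 scale with each library left out in turn. From P5 to P8 the level fell by 0.38 on the log2 scale (SE 0.11, edgeR FDR = 0.037). This decrease was -0.14 (edgeR FDR = 0.63) without the 2 P8 libraries with high thymus genes, a choice made after seeing the data that leaves a single P8 library. It also missed the threshold without E15.5 replicate 1, without any 1 of the P5 libraries and without P8 replicate 1 or 2 (edgeR FDR between 0.052 and 0.14).

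*Ptgis* encodes prostacyclin synthase, and its course differed from that of the other genes. Its levels were 23.7, 25.4 and 22.9 CPM at E15.5, then 16.6, 14.6 and 20.6 CPM at E18.5. They were 16.9, 22.6 and 17.2 CPM at P5 and 32.5, 36.4 and 28.2 CPM at P8. Every E18.5 library lay below every E15.5 library, the E18.5 and P5 libraries overlapped, and the P8 libraries lay above all others. The log2FC was -0.47 from E15.5 to E18.5 (SE 0.14, edgeR FDR = 0.031), 0.21 from E18.5 to P5 (SE 0.14, edgeR FDR = 0.18, or 0.35 and edgeR FDR = 0.041 without E18.5 replicate 3) and 0.76 from P5 to P8 (SE 0.14, edgeR FDR = 0.0051). The first of these was no longer past the threshold without E15.5 replicate 1 or 2 or E18.5 replicate 1 or 2, with edgeR FDR between 0.062 and 0.11. Without the 2 libraries with high heart genes it was -0.42 (edgeR FDR = 0.26). The last was 0.55 (edgeR FDR = 0.15) without the 2 P8 libraries with high thymus genes. Between E15.5 and P8 the log2FC was 0.51 (edgeR FDR = 0.0046), and 0.30 (edgeR FDR = 0.17) without those 2 P8 libraries.

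*Ptgir*, the prostacyclin receptor of the vessel wall and of platelets, was at 2.19, 1.89 and 2.5 CPM at E15.5 and at 1.81, 2.97 and 2.60 CPM at E18.5. Its postnatal levels were 8.0, 6.59 and 6.99 CPM at P5 and 7.66, 8.04 and 7.20 CPM at P8. The 6 postnatal libraries lay above the 6 embryonic ones, and neighbouring time-points on the same side of birth overlapped. The rise from E18.5 to P5 was 3.11-fold (log2FC 1.64, SE 0.19, edgeR FDR = 7.3e-06). From P5 to P8 its log2FC was 0.07 (95% interval -0.33 to 0.46).

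*Edn1* encodes the precursor of endothelin-1. Its levels were 4.21, 6.92 and 5.15 CPM at E15.5 and 21.8, 5.65 and 5.31 CPM at E18.5. They were 31.9, 30.0 and 28.4 CPM at P5 and 23.0, 24.7 and 29.9 CPM at P8. E18.5 replicate 1 lay apart from the other 2 libraries of its time-point and close to the P8 range, while the other 2 lay within the E15.5 range. From E18.5 to P5 the log2FC was 1.55 (SE 0.43, edgeR FDR = 0.0063), and it was 2.56 (edgeR FDR = 8.7e-07) without E18.5 replicate 1. The same library set the change from E15.5 to E18.5, which was 1.02 (SE 0.44, edgeR FDR = 0.12) with it and 0.01 (edgeR FDR = 0.97) without it. Leaving out E18.5 replicate 3 instead gave 1.36 (edgeR FDR = 0.037). From E15.5 to P8 *Edn1* rose 5.03-fold (log2FC 2.33, SE 0.45, edgeR FDR = 4.2e-04), where the SE and FDR also draw on the spread of the E18.5 libraries; without E18.5 replicate 1 the log2FC was again 2.33 (edgeR FDR = 2.4e-07).

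*Ece1* encodes the enzyme that cuts big endothelin-1 to the active peptide. It was at 104, 96.6 and 103 CPM at E15.5, at 119, 113 and 114 CPM at E18.5, at 275, 277 and 259 CPM at P5 and at 275, 266 and 319 CPM at P8. The postnatal libraries lay above the embryonic ones with no overlap, and P5 and P8 overlapped. The rise from E18.5 to P5 was 2.49-fold (log2FC 1.32, SE 0.073, edgeR FDR = 1.5e-08). Before birth, between E15.5 and E18.5, the log2FC was 0.19 (SE 0.072, edgeR FDR = 0.076), which passed the threshold at 0.21 without P8 replicate 3 (edgeR FDR = 0.036) or without the 2 P8 libraries with high thymus genes (edgeR FDR = 0.042).

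*Ednra*, the endothelin receptor of smooth muscle, was the only one of the 9 genes that fell both between E18.5 and P5 and between P5 and P8. It was at 194, 187 and 213 CPM at E15.5 and at 239.6, 223 and 238 CPM at E18.5. At P5 it was at 148, 161 and 153 CPM, and at P8 at 104, 101 and 125 CPM. Each time-point was separate from the others, with the peak at E18.5. The log2FC was -0.52 from E18.5 to P5 (SE 0.079, edgeR FDR = 7.4e-05) and -0.50 from P5 to P8 (SE 0.079, edgeR FDR = 0.0029). The second decrease was -0.33 (edgeR FDR = 0.1) without the 2 P8 libraries with high thymus genes. The earlier rise, 0.24 from E15.5 to E18.5 (SE 0.079, edgeR FDR = 0.045), lay at the threshold: it failed it without any of 9 of the 12 libraries (edgeR FDR up to 0.13) and was 0.13 (edgeR FDR = 0.52) without the 2 libraries with high heart genes. From E18.5 to P5 the ligand *Edn1* and the enzyme *Ece1* therefore rose while this receptor fell.

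*Nos3* encodes endothelial nitric oxide synthase. Its levels were 11.3, 9.87 and 10.9 CPM at E15.5, 13.4, 12.7 and 11.6 CPM at E18.5, then 14.6, 14.7 and 14.3 CPM at P5 and 18.1, 21.9 and 23.0 CPM at P8. The libraries of the 4 time-points did not overlap and stood in the order of age. The log2FC was 0.30 from E18.5 to P5 (SE 0.099, edgeR FDR = 0.017) and 0.51 from P5 to P8 (SE 0.099, edgeR FDR = 0.0067). These intervals differ in length, and the difference between their changes was not tested. No library was taken between E18.5 and P5, so the change over that interval cannot be placed at birth. The first of these changes did not hold under each choice. With library size in place of TMM it was 0.23 (edgeR FDR = 0.059), and on reads recovered from the CPM values 0.29 (edgeR FDR = 0.057). By limma it was 0.20 on log2(CPM + 1) (limma FDR = 0.089) and 0.21 on log2(CPM + 0.1) (limma FDR = 0.085). Without E18.5 replicate 3, P5 replicate 1 or P5 replicate 2 the edgeR FDR was between 0.051 and 0.077. The second was 0.63 (edgeR FDR = 0.05) without the 2 P8 libraries with high thymus genes, just over the threshold. From E15.5 to P8 *Nos3* rose 2.07-fold (log2FC 1.05, SE 0.10, edgeR FDR = 9.0e-07), and with single libraries left out this lay between 0.98 and 1.12.

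*Prkg1* encodes the cyclic GMP-dependent protein kinase of smooth muscle. It was at 11.2, 7.82 and 10.6 CPM at E15.5, at 11.9, 9.55 and 11.4 CPM at E18.5, at 19.5, 16.8 and 19.6 CPM at P5 and at 16.9, 15.0 and 18.7 CPM at P8. The postnatal libraries again lay above the embryonic ones, and time-points on the same side of birth overlapped. The rise from E18.5 to P5 was 1.81-fold (log2FC 0.86, SE 0.15, edgeR FDR = 2.1e-04).

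*Pde5a* encodes the phosphodiesterase that breaks down cyclic GMP. Its levels were 279, 228 and 308 CPM at E15.5, 329.8, 323 and 309.6 CPM at E18.5, then 552, 563 and 587 CPM at P5 and 381, 385 and 496 CPM at P8. It was highest at P5, where all 3 libraries lay above those of every other time-point. From E15.5 to E18.5 the log2FC was 0.25 (SE 0.11, edgeR FDR = 0.13), and it was 0.35 (edgeR FDR = 0.045) without E15.5 replicate 3. The rise from E18.5 to P5 was 1.88-fold (log2FC 0.91, SE 0.11, edgeR FDR = 1.3e-05), and the decrease from P5 to P8 was -0.45 (SE 0.11, edgeR FDR = 0.019). That decrease was -0.23 (edgeR FDR = 0.45) without the 2 P8 libraries with high thymus genes, and it missed the threshold without P5 replicate 1 or 3 or P8 replicate 1 or 2 (edgeR FDR between 0.057 and 0.086).

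**Figure D2:**
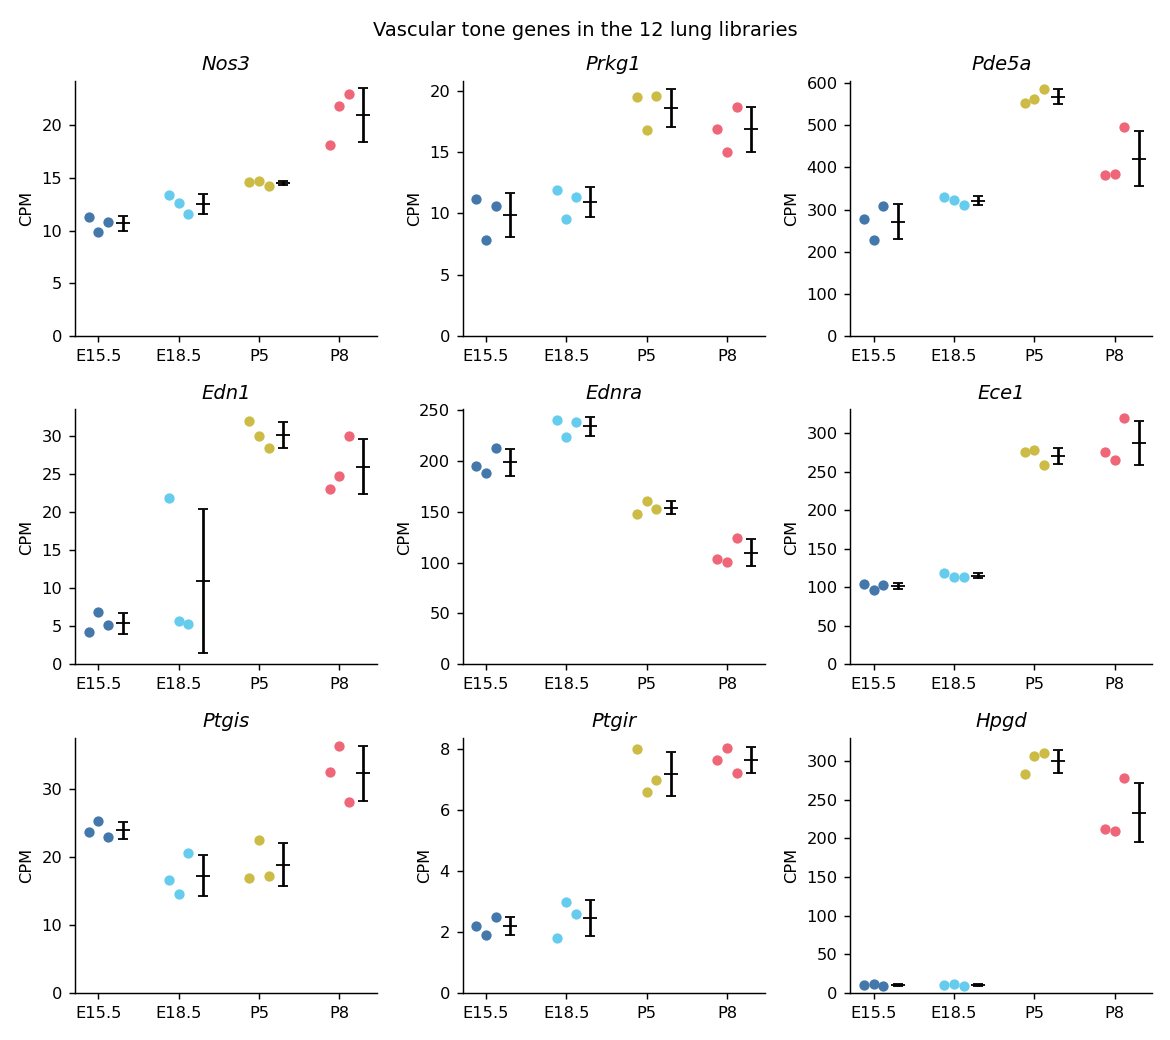
CPM (y axis, from 0) of the 9 genes in each library at the 4 time-points (x axis); points are replicates 1, 2 and 3 from left to right, and bars show the mean ± SD of the 3 libraries. *Hpgd*, *Ptgir*, *Ece1* and *Prkg1* step up between E18.5 and P5, *Ednra* falls, and E18.5 replicate 1 stands apart for *Edn1* at 21.8 CPM.

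To compare genes with each other, CPM was divided by the exon length of the gene. This length joins the exons of all annotated transcripts and is not that of the transcripts present in these lungs. For *Nos3* it includes the part under genes of the opposite strand. At E18.5 the highest levels were those of *Ednra* (42.7 ± 1.68 CPM per kb, SD, n = 3), *Pde5a* (32.6 ± 1.04) and *Ece1* (21.7 ± 0.562). *Ptgis*, *Hpgd*, *Edn1* and *Nos3* followed between 6.72 and 3.04 CPM per kb, and neighbours in this order met within their SDs. *Prkg1* (1.01 ± 0.113) and *Ptgir* (0.737 ± 0.178) were lowest and also met. At P5 *Hpgd* was first with 178 ± 8.84 CPM per kb, ahead of *Pde5a* (57.7 ± 1.80) and *Ece1* (51.0 ± 1.92), and *Ednra* had moved to the fourth place (28.1 ± 1.21). No neighbours met within their SDs at P5, with *Edn1* (14.1 ± 0.812), *Ptgis* (7.36 ± 1.25), *Nos3* (3.51 ± 0.0535), *Ptgir* (2.16 ± 0.218) and *Prkg1* (1.72 ± 0.144) in the lower places. At P8 *Hpgd* remained first (139 ± 23.1), *Ece1* (54.1 ± 5.41) and *Pde5a* (42.8 ± 6.62) met within their SDs, and so did *Ptgis* (12.6 ± 1.60) and *Edn1* (12.1 ± 1.69).

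**Figure D3:**
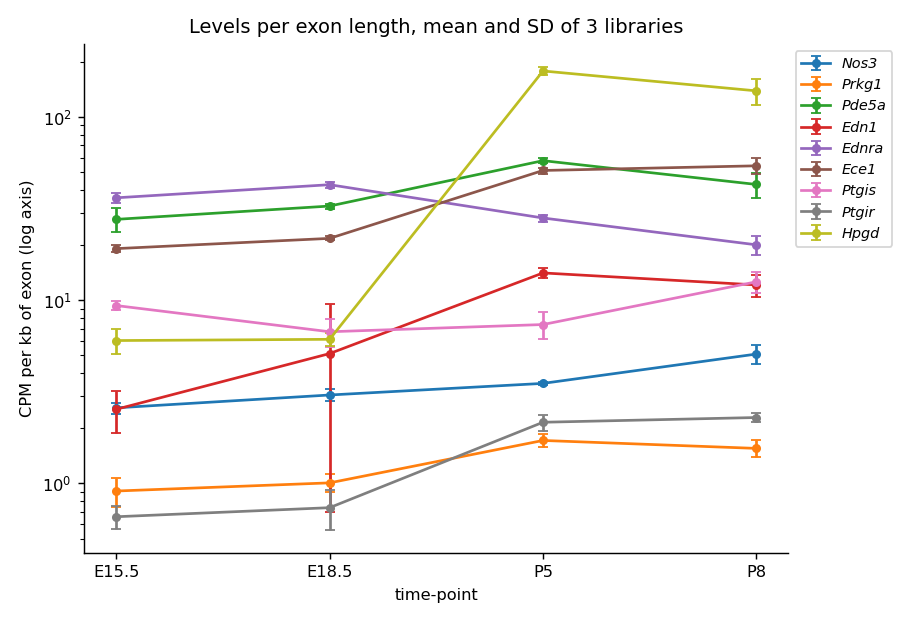
CPM per kb of exon (y axis, log scale) of the 9 genes at the 4 time-points (x axis), as the mean with SD of 3 libraries. *Hpgd* moves from 6.11 CPM per kb at E18.5 to 178 at P5, while *Ednra* goes from the first place at E18.5 to the fourth at P5.

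The other genes of the 3 pathways were described with lists of 29 NO-cGMP, 9 endothelin and 20 prostanoid genes, of which 52 of 58 were tested. From E18.5 to P5, 32 of the 52 rose and 8 fell, and 19 passed both cutoffs, 18 upwards and 1 downwards, where 35.4% of all genes rose, 35.7% fell and 26.8% passed both cutoffs. In the NO-cGMP list, 16 of 26 rose and 2 fell (median log2FC 0.90), in the endothelin list 5 of 8 rose and 3 fell (median 0.28), and in the prostanoid list 11 of 18 rose and 3 fell (median 0.73). From E15.5 to E18.5, 12 of the 52 rose and 1 fell (11.6% and 9.87% of all genes), and from P5 to P8, 3 rose and 6 fell (9.75% and 8.21% of all genes).

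Of the subunits of soluble guanylate cyclase, the receptor of nitric oxide, *Gucy1a1* and *Gucy1b1* rose between E18.5 and P5, *Gucy1a2* did not pass the test (log2FC 0.20, edgeR FDR = 0.28) and *Gucy1b2* was not tested. *Gucy1a1* was at 231 ± 9.12 CPM (SD, n = 3) at E18.5 and 425 ± 5.88 at P5 (log2FC 0.96, edgeR FDR = 8.8e-07), and *Gucy1b1* at 111 ± 11.1 and 202 ± 5.06 CPM (log2FC 0.95, edgeR FDR = 2.2e-06). *Nostrin*, whose product binds endothelial nitric oxide synthase and moves it from the membrane, rose from 15.0 ± 1.68 to 76.6 ± 2.99 CPM (log2FC 2.44, edgeR FDR = 4.1e-09). *Pde3a*, a phosphodiesterase inhibited by cyclic GMP, rose from 30.9 ± 4.38 to 126 ± 7.36 CPM (log2FC 2.12, edgeR FDR = 1.8e-08). The related kinase gene *Prkg2* rose from 3.98 ± 1.19 to 10.4 ± 0.390 CPM (log2FC 1.47, edgeR FDR = 1.5e-04). Of the other nitric oxide synthases, the inducible form *Nos2* rose from 6.41 ± 0.668 to 14.4 ± 1.77 CPM (log2FC 1.26, edgeR FDR = 9.8e-06), and the neuronal form *Nos1* was not in the count table and was listed at 1.5 CPM or less.

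In arginine metabolism, which supplies or competes for the substrate of nitric oxide synthase, *Ass1* was the only listed gene past both cutoffs from E15.5 to E18.5 (log2FC 1.49, edgeR FDR = 7.3e-04). Arginase 1 (*Arg1*) was at 45.4, 42.4 and 2.25 CPM in the 3 P8 libraries and at 2.81, 2.39 and 2.19 CPM at P5. Its high values stood in the P8 libraries with high *Rag1*, and without those libraries 0 of the 52 listed genes passed both cutoffs from P5 to P8 by edgeR. The part of thymus genes in this difference was not tested.

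In the endothelin pathway, the second receptor *Ednrb* moved as *Ednra* did. Its levels were 134, 140.1 and 134 CPM at E15.5, 203, 169 and 168 CPM at E18.5, then 115, 131 and 130.1 CPM at P5 and 74.4, 74.7 and 91.6 CPM at P8. It rose before birth (log2FC 0.41, edgeR FDR = 0.0088), fell to P5 (-0.44, edgeR FDR = 8.6e-04) and fell again to P8 (-0.66, edgeR FDR = 0.0016). The lower P8 values, 74.4 and 74.7 CPM, stood in the libraries with high thymus genes, and the *Ednrb* change without those libraries is not given here. *Edn3*, which encodes another endothelin, went from 46.9 ± 4.57 CPM to 28.6 ± 0.823 CPM between E18.5 and P5 (log2FC -0.62, edgeR FDR = 9.8e-05), opposite to *Edn1*. *Edn2* was not in the count table and was listed at 0.883 CPM or less. *Ece2*, a relative of *Ece1*, fell from 15.6 ± 0.610 to 6.46 ± 0.991 CPM (log2FC -1.19, edgeR FDR = 9.3e-06), although 57.5% of its exonic bases are shared with another gene of the same strand. *Mme*, which encodes neprilysin, a peptidase that degrades endothelin-1 among other peptides, rose from 14.3 ± 2.93 to 101 ± 2.29 CPM (log2FC 2.91, edgeR FDR = 9.2e-09).

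Among the prostanoid genes, *Slco2a1*, the transporter that takes prostaglandins into the cell where *Hpgd* acts, also rose between E18.5 and P5. It was at 27.6, 26.6 and 27.6 CPM at E15.5, 41.6, 47.2 and 38.3 CPM at E18.5, then 313, 302 and 269.9 CPM at P5 and 296, 263 and 351 CPM at P8. Its log2FC was 0.64 from E15.5 to E18.5 (edgeR FDR = 0.0029), where *Hpgd* changed by 0.03, and 2.89 from E18.5 to P5 (edgeR FDR = 1.7e-09). Of the cyclooxygenases, *Ptgs1* rose from 37.3 ± 3.30 to 86.4 ± 8.56 CPM (log2FC 1.30, edgeR FDR = 3.0e-07) and *Ptgs2* from 0.204 ± 0.156 to 3.16 ± 0.715 CPM (log2FC 4.01, edgeR FDR = 7.6e-06). The E2 receptors *Ptger4* and *Ptger2* rose with a log2FC of 2.51 and 2.13 (edgeR FDR = 3.0e-05 and 1.5e-07). Thromboxane, a constrictor, is made by the enzyme of *Tbxas1* and read by the receptor of *Tbxa2r*, which rose with a log2FC of 2.1 and 0.72 (edgeR FDR = 4.8e-06 and 2.0e-05).

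**Figure D4:**
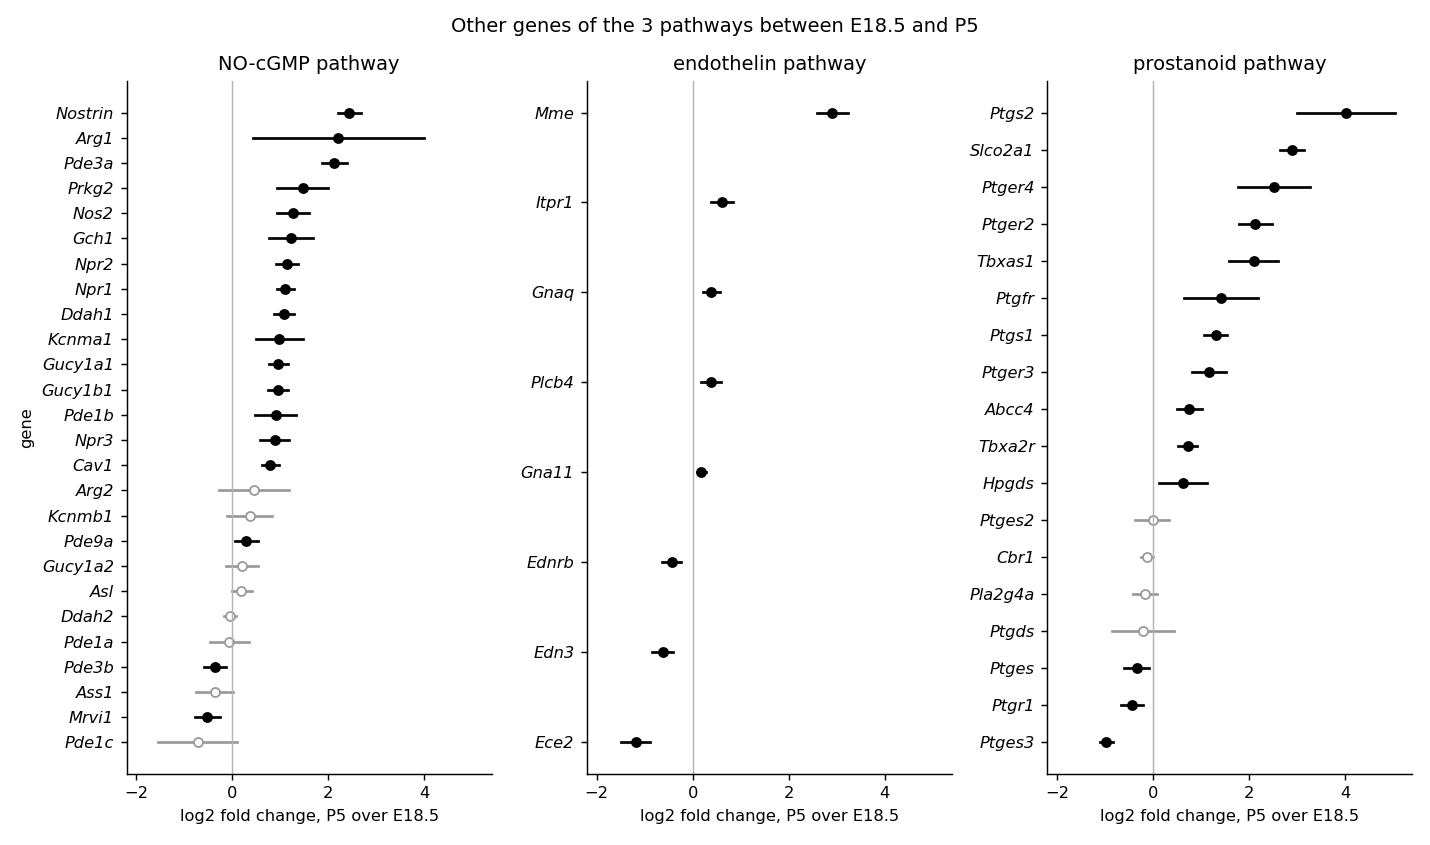
The log2FC from E18.5 to P5 (x axis, with 95% interval from edgeR) of the 52 tested genes of the NO-cGMP, endothelin and prostanoid lists (y axis); filled points have FDR under 0.05. *Ptgs2*, *Mme*, *Slco2a1* and *Ptger4* lie furthest to the right, and in the endothelin list *Ednrb*, *Edn3* and *Ece2* lie left of 0.

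In whole lung, fewer cells of a type and less RNA per cell cannot be told apart. The 9 genes were therefore set beside markers of the vessel wall. The summed level of 8 endothelial markers lay between 990 and 1067 CPM at E15.5, between 1276 and 1386 CPM in the E18.5 libraries, between 2870.1 and 3020.0 CPM in the P5 and between 2434 and 2932 CPM in the P8 libraries, with all 8 markers higher at P5 than at E18.5 and 6 of 8 past both cutoffs, where 35.4% of all genes rose, 35.7% fell and 26.8% passed both cutoffs. The sum of 8 mural markers, for smooth muscle and pericytes, moved less, from between 973 and 1080.2 CPM at E18.5 to between 1039.7 and 1144 CPM at P5, with 4 of 8 higher and 1 lower. The mural marker *Tagln* was listed at 2.15 CPM or less in every library, and 67.9% of its exonic bases lie under other genes. It was kept in the mural list with the same weight as the others, and the mural mean without it was not computed. Of the epithelial markers 4 of 7 rose and 2 fell between E18.5 and P5, and all 5 red cell markers rose. The epithelial sum moved most, from between 1821 and 2788 CPM at E18.5 to between 15213 and 17228 CPM at P5. Most of it was *Sftpc*, at 1417 ± 374 CPM (SD, n = 3) at E18.5 and 12281 ± 811 CPM at P5. The red cell sum went from between 3188 and 3859 CPM to between 9483 and 15881 CPM. The 9 genes, *Hpgd* among them, were not set against either list. The part of epithelial and red cells in their changes was not tested.

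Each gene was then expressed as its log2(CPM + 1) minus the mean log2(CPM + 1) of a marker list, and the 6 postnatal libraries were compared with the 6 embryonic ones by an exact two-sided permutation test. The test permutes single libraries as if they were independent, although the libraries of a time-point came from a single litter. Its p-values therefore do not measure the spread between litters, and they cannot tell birth from age or litter. The differences below describe these libraries. There were 18 differences of a gene from a marker list, and the smallest possible p is 0.0022. Of these differences, 14 stayed under 0.05 after Benjamini-Hochberg adjustment over the 18. The share of all genes that would pass the same test was not computed, so this count has no background. The mean of the endothelial markers themselves was 1.14 higher after birth on this scale, and that of the mural markers 0.27 higher. A gene with unchanged CPM would therefore be lower relative to either list.

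Relative to the endothelial markers, *Hpgd* was 3.42 higher after birth (exact permutation p = 0.0022), and all 6 postnatal libraries lay above the embryonic ones. *Nos3* was lower by this measure, at -3.34 before and -3.93 after birth, a difference of -0.59 (exact permutation p = 0.0065) although its CPM rose. Within the postnatal libraries the *Nos3* difference was not the same at both time-points, where its mean was -4.28 (P5) and -3.58 (P8) against -3.39 in the E18.5 libraries. *Ece1* stayed close to the endothelial markers, 0.21 higher (exact permutation p = 0.019). *Ptgir* was 0.20 higher (exact permutation p = 0.16), and 0.50 higher (adjusted p = 0.0097) with a pseudocount of 0.1 in place of 1. The *Ece1* difference lost its call without any single E18.5 library (adjusted p between 0.057 and 0.061) and was 0.14 (adjusted p = 0.086) without the 2 P8 libraries with high thymus genes. *Edn1* was 0.72 higher (exact permutation p = 0.043, adjusted p = 0.052), and 0.99 higher without E18.5 replicate 1 (adjusted p = 0.0039). With all libraries it was 0.86 with the pseudocount of 0.1 (adjusted p = 0.034) and 0.75 without the most abundant marker (adjusted p = 0.044). Without E18.5 replicate 2 or 3 it was 0.63 or 0.64 and not called (adjusted p = 0.09 and 0.094).

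Relative to the mural markers, *Ednra* was 1.0 lower after birth, at 2.03 before and 1.03 after, with no overlap between the 6 and 6 libraries (exact permutation p = 0.0022). *Prkg1* and *Pde5a* were each 0.45 higher (exact permutation p = 0.0043 and 0.011), but relative to the endothelial markers the difference was -0.42 for each (exact permutation p = 0.0022), so their direction depended on the reference. *Ptgis* did not differ past the threshold (difference -0.01, exact permutation p = 0.98), where its mean was -1.67 in the E18.5, -1.69 in the P5 and -0.94 in the P8 libraries. Without the 2 E15.5 libraries with high heart genes, the *Pde5a* difference was 0.41 (adjusted p = 0.053), the *Nos3* difference from the endothelial markers -0.56 (adjusted p = 0.053), and the *Ptgis* difference from the endothelial markers -0.66 (adjusted p = 0.1), where it was -0.88 (exact permutation p = 0.022) with all libraries. That *Ptgis* difference also missed the threshold without E15.5 replicate 1, 2 or 3 or P5 replicate 1 (adjusted p between 0.053 and 0.058).

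**Figure D5:**
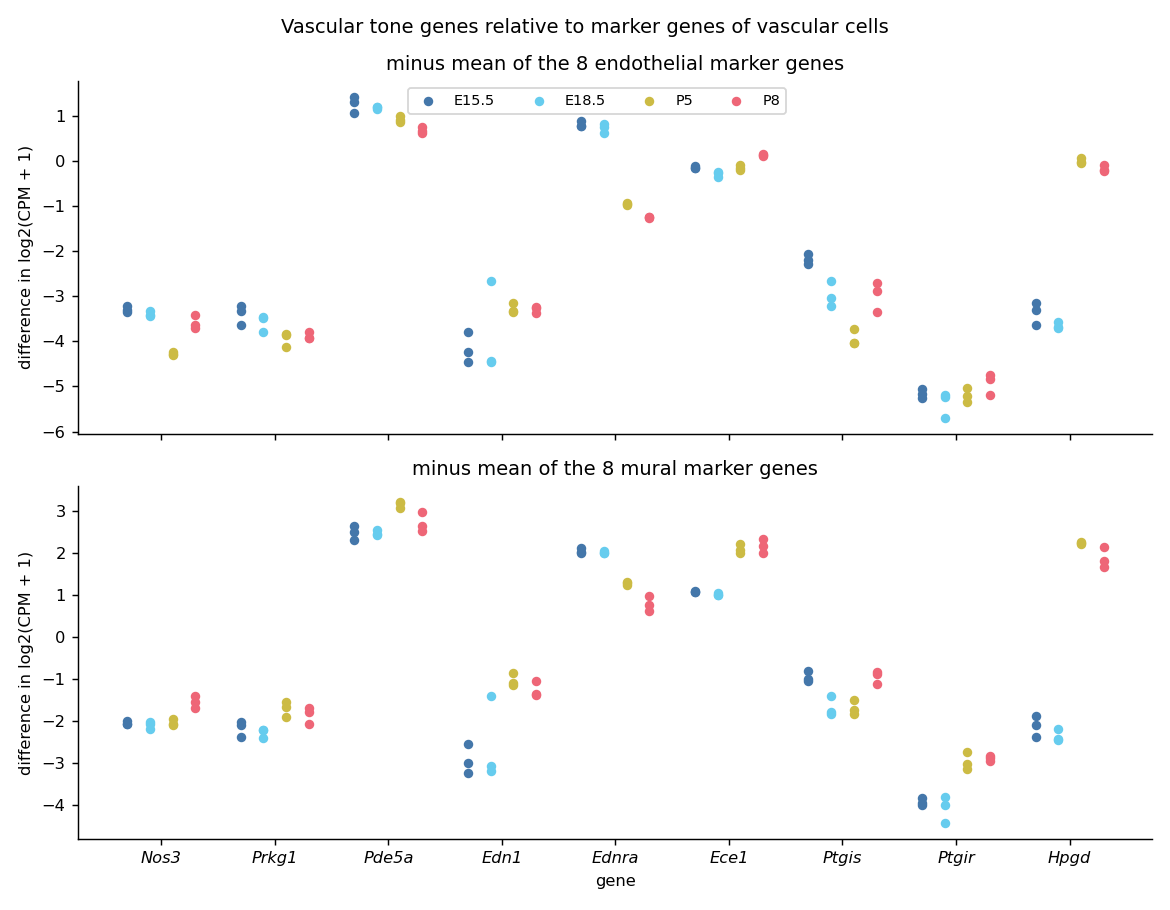
Difference in log2(CPM + 1) (y axis) between each of the 9 genes (x axis) and the mean of 8 endothelial (upper panel) or 8 mural (lower panel) marker genes, with 1 point per library coloured by time-point. *Hpgd* lies far higher at P5 and P8 than at E15.5 and E18.5 in both panels, *Ednra* lies lower, and E18.5 replicate 1 stands apart for *Edn1* at -2.66 in the upper panel.

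The genes with the most similar course were found by Pearson's correlation of log2(CPM + 1) over the 12 libraries among 12152 genes with a mean of at least 5 CPM, as a description in which the points share time-points and litters. The highest values were those of *Hpgd* with *Dusp3* (0.999), *Kcne2* (0.998) and *Nucb2* (0.998) and of *Ece1* with *Msn* (0.998), *App* (0.997) and *Nceh1* (0.997). *Ptgir* was closest to *Zc3hav1* (0.992), *Mcemp1* (0.991) and *Tmem268* (0.989), and *Ednra* to *Tmtc3* (0.986), *Impad1* (0.986) and *Lcorl* (0.985). *Pde5a* followed *Gpm6b* (0.985), *Rasal2* (0.983) and *Klf7* (0.982), *Nos3* followed *Slc12a7* (0.983) and *Pdcd6ip* (0.972), and *Prkg1* followed *Borcs6* (0.972) and *Ddr2* (0.965). *Edn1* was most like *Bach1* (0.971), *Pik3ip1* (0.969) and *Ier3* (0.969). The lowest of these best matches were those of *Ptgis*, with *Gsta4* (0.937), *Cpz* (0.927) and *Mfn2* (0.926).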

How the data were processed

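RNA from whole lungs (12 libraries, 4 time-points) was extracted with a column kit, made into TruSeq libraries and sequenced as paired ends by the authors. Per the labels, reads were aligned to mm10 with TopHat2 2.1.1 and Bowtie2 2.3.4 and counted with HTSeq 0.10.0. The authors deposited raw counts of 16152 genes, and CPM (counts scaled to mapped reads) of 51825 genes. The CPM steps gave whole reads for 100% of values (tolerance 0.01 reads), equal to the counts in 100% of shared genes; edgeR on these recovered reads was an added alternative. A table of splicing percentages was not used here. The 9 genes and all lists were chosen with earlier results of these data known.

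Counts were tested with edgeR 4.0.16 (TMM, glmQLFit, glmQLFTest, all 12 libraries in one fit) in R 4.3.3; DESeq2 1.42.0 and limma 3.58.1 (on log2(CPM + 1) and log2(CPM + 0.1)) were alternatives, as were other scalings, no filter, a replicate block and leaving out each library. The test was tested on simulated counts. Symbols matched 16136 of 16152 IDs. Pathway genes are named when among the 4 largest past both cutoffs in their list and interval, or as a paralog or partner of a member. *Gucy1a2* and *Gucy1b2* are named outside this rule, beside the other subunits of soluble guanylate cyclase. Similar genes are the 3 with the highest correlation, of which some are not reported here.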

Additional observations from a re-analysis of the deposited data

Results flagged for a closer look

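Among the 36 groups of 6 embryonic or postnatal libraries examined for a library far from the other 5, where chance gives about 1 in 20, E18.5 replicate 1 stood apart in 3. It was high for *Edn1* minus the endothelial markers, at -2.66, where its gap to the next library was 0.633 of the whole range. It was low for *Ptgir* minus the endothelial markers (-5.69, 0.688 of the range) and minus the mural markers (-4.42, 0.696 of the range). Each gap was above Dixon's 95% critical value, and the 6 embryonic libraries come from 2 time-points. The groups share libraries and genes, so they are not independent, and both *Ptgir* gaps rest on the same *Ptgir* value. In CPM that value was 1.81, close to the 1.89 of E15.5 replicate 2.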

How the results depend on the processing

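With FDR alone as the call, 2, 8, 5 and 9 of the 9 genes changed in the intervals E15.5 to E18.5, E18.5 to P5, P5 to P8 and E15.5 to P8, against 0, 4, 0 and 5 past both cutoffs, and 13, 40, 9 and 43 pathway genes against 1, 19, 1 and 22. On the reads recovered from CPM, an alternative chosen after seeing the data, 1 of the 9 genes (*Edn1*) passed both cutoffs from E15.5 to E18.5. Without the libraries with high heart genes 2 pathway genes did, and without those with high thymus genes 0 did from P5 to P8; both were also chosen after seeing the data and leave 1 library at that time-point. With single libraries left out, the counts of the 9 genes were 0 to 1, 4 to 4, 0 to 0 and 4 to 5, those of pathway genes 1 to 2, 18 to 22, 1 to 1 and 20 to 23, and 13 to 15 of the 18 differences from marker genes stayed called. Signs turned only for values near 0: *Ece1* from P5 to P8 was -0.03 without P8 replicate 3 (-0.03 to 0.13 over single libraries), *Ptgir* was -0.02 without P5 replicate 2 (-0.02 to 0.17), -0.03 without the 2 P8 libraries and, from E15.5 to E18.5, -0.03 without the 2 E15.5 libraries. *Hpgd* from E15.5 to E18.5 lay between -0.08 (E15.5 replicate 3 left out) and 0.12, with -0.03 when E18.5 replicate 2 was left out. *Ptgis* minus mural markers turned to 0.20 without the 2 E15.5 libraries and to between 0.03 and 0.10 (0.03, 0.05, 0.06, 0.08, 0.10) without single E15.5 or P5 libraries, in a range of -0.11 to 0.10. The causes were not tested.

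Replicate numbers are shared by the 4 time-points but did not pair the libraries: same-numbered libraries correlated between -0.343 and 0.301, 3 of 18 pairs over 0.1, and 4 of 12 libraries correlated best with their own number. A replicate block left 0, 4, 0 and 5 of the 9 genes past both cutoffs, and the *Hpgd* decrease from P5 to P8 (-0.38) then had edgeR FDR = 0.061. Over all alternatives, called changes of the 9 genes kept direction and call in 511 cases and lost the call in 41, and changes that were not called gained a call in 6. Library size in place of TMM moved the median of all genes by at most 0.07 on the log2 scale. Low counts limit *Ptgir* most, and 3 libraries against 3 cannot go below p = 0.10 in an exact test.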

Other observations

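E18.5 replicate 1 was looked at further after its *Edn1* value had been seen. Of 15255 genes with a mean of at least 1 CPM, 8 lay more than 1 above both other E18.5 libraries on log2(CPM + 1), against 2 and 2 for the other E18.5 libraries and 0 to 66 for libraries of other time-points. The 8 genes were *Edn1*, *Ier3*, *Hspa1a*, *Hspa1b*, *Bhlhe40*, *Adm*, *Pde4b* and *Arrdc3*. *Ier3*, an immediate early gene, was at 26.1 CPM in this library and at 4.90 and 4.60 CPM in the others. *Bhlhe40*, a transcription factor gene, was at 47.5 CPM against 14.0 and 12.4 CPM. The heat shock genes *Hspa1a* and *Hspa1b* were at 8.11 and 14.4 CPM, against at most 1.72 and 4.45 CPM. *Adm*, which encodes the vasodilator peptide adrenomedullin, was at 4.21 CPM against 0.651 and 1.01 CPM.

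*Edn1* was thus close to its P8 range in a single library before birth, and *Ece1* in that library was 119 CPM against 113 and 114 CPM in the other 2. The part of the other 7 genes in the *Edn1* value was not tested.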
